A study of Mus musculus with 16 samples.

Results

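The carboxylesterases and epoxide hydrolases examined here were 10 genes, namely Ces1b, Ces1c, Ces1d, Ces1f, Ces1g, Ces2a, Ces2c, Ces2e, Ephx1 and Ephx2. They were chosen by name, with earlier results of these data known, as were the lists of other genes below. Shares of all genes set beside counts are therefore descriptions and not tests of enrichment. Every probe whose RefSeq accession mapped to one of these symbols was taken. This yielded 15 probes of 41174 on the array, and 10 of 19096 genes with a symbol. Ces1c, Ces1g, Ces2c, Ces2e and Ephx1 each had a pair of probes and the other genes had 1. All 15 probes were well above background on 16 of 16 arrays, so all 10 genes were tested, among 13306 genes tested in all.

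Liver RNA came from 16 male mice, 1 Agilent 1-colour array (Cy3) per mouse, taken at 57 weeks of age from liver outside tumours. Wild type (WT) mice were C57BL/6J, and KO mice carried a null allele of Gadd45b in every tissue, from a stock whose name gives a further strain beside B6, although the study calls the null mice C57BL/6J in background. Every animal, controls included, was given the genotoxic initiator N-diethylnitrosamine (DEN) when 5 weeks old, at a dose of 90 mg/kg. The DEN + PB groups also drank phenobarbital (PB), a promoter of liver tumours, at 0.5 g/l from 7 weeks of age, which made 4 groups of 4 mice, named by genotype and treatment. No mice without DEN were examined, and an effect of the null allele and one of strain background cannot be told apart.

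Carboxylesterases are serine hydrolases, most of them held in the endoplasmic reticulum, that cleave ester and amide bonds in drugs, pesticides and cell lipids. In the mouse they form tandem arrays of close paralogs of the Ces1 and Ces2 subfamilies. Epoxide hydrolases add water to reactive epoxides, many of them made by cytochromes P450, and turn them into diols. In liver, PB acts through the nuclear receptor CAR, which is known to raise genes of drug metabolism, Cyp2b10 first among them.

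Of the 10 genes, 7 had a promoter in the RefSeq-based table of assembly GRCm38.p6, while Ces1d, Ces1f and Ephx2 had none there. The 250 bases before the start of transcription are shown for the genes on which the results turn, in the direction of the gene. Ces2a and Ces2c were the genes called higher with PB, Ces2e is a neighbour on the same strand that was not called, Ephx1 is the epoxide hydrolase with the largest change, and Ces1b and Ces1c are neighbours of which only Ces1b was called between genotypes. Capitals mark the motifs that were searched for and found.

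Ces2a, chr8:104733753-104734002, + strand: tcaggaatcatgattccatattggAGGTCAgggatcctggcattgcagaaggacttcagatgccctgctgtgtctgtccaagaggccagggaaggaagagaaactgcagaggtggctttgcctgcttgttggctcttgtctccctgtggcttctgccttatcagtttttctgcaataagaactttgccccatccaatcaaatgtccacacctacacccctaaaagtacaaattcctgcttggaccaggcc
Ces2c, chr8:104846818-104847067, + strand: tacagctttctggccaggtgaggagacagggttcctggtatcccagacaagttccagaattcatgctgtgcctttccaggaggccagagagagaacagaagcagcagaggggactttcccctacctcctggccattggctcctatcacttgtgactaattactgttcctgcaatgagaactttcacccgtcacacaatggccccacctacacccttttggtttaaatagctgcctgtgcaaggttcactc
Ces2e, chr8:104926010-104926259, + strand: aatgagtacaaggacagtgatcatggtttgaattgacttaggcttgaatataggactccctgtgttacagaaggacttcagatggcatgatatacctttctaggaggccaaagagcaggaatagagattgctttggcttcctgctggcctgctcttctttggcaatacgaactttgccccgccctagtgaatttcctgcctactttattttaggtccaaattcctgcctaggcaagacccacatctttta
Ephx1, chr1:181017570-181017819, - strand: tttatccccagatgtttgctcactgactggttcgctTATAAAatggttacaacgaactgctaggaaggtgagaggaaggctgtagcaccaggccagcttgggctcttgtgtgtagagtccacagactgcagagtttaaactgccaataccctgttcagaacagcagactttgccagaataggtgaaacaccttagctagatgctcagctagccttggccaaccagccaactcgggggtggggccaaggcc
Ces1b, chr8:93079941-93080190, - strand: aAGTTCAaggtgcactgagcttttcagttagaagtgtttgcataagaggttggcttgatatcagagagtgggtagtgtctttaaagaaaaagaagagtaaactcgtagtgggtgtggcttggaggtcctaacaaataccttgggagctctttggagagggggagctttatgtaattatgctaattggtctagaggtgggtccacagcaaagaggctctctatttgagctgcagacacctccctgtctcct
Ces1c, chr8:93131284-93131533, - strand: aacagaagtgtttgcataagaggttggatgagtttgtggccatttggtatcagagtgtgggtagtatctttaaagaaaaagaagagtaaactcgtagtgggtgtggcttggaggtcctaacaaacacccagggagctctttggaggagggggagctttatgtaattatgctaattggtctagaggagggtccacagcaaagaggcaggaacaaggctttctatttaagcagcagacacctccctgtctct

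Motif AGGTCA is a run of letters that nuclear receptors are known to bind, and it was searched on both strands. A related motif of the same receptors, spelled AGTTCA, was searched likewise. The core of the antioxidant response element, TGACNNNGC, was also searched on both strands, and its first letters can overlap a reverse-strand match of the first motif. The TATA box letters TATAAA were searched on the strand of the gene. AGGTCA was found in the Ces2a window, 226 bases before the start, and in 14.0% of 32851 promoter windows of the same length. Ces1b has a pair of starts in the table, of which 1 window is printed. The variant AGTTCA was found 249 bases before that start and 172 bases before the other, at the same site, and in 11.8% of all windows. The letters TATAAA were found in the Ephx1 window 214 bases before the start, and in 7.59% of all windows. The core TGACNNNGC was found in none of the 8 windows of these genes and in 10.2% of all windows. The Ces2c, Ces2e, Ces1c and Ces1g windows held none of these letters. In pairwise alignments the Ces1b and Ces1c windows were 93.3% identical over 223 aligned bases. The Ces2a window was 67.5% identical to that of Ces2c and 69.9% to that of Ces2e, and the Ces2c and Ces2e windows were 67.3% identical. These are descriptions of letters, and no binding was measured.

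The array's 75th percentile of the processed signal, to which each value below is relative, ranged from 136.9 to 294.3 intensity units over the arrays. The share of spots detected well above background ranged from 58.25% to 67.73%, no spot was saturated, and replicate arrays had pairwise r of 0.9744 to 0.9918. The targeted gene, Gadd45b, was detected well above background in every WT mouse and in no KO mouse. Cyp2b10 rose with PB by 6.69 ± 0.62 (SE) on the log2 scale in WT and by 6.80 ± 0.62 in KO. The arrays lay on 4 slides, each of which held arrays of 3 or 4 groups.

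In WT mice, PB raised Ces2c, and it was the only one of the 10 genes called, against 0.737% of all genes tested (0.654% higher and 0.0827% lower). A gene was called at a limma adjusted p under 0.05 over all probes and a change of 1.5-fold or more, by its brightest probe. Ces2a and Ephx1 also had 4 PB arrays above all 4 DEN arrays but missed the adjusted threshold. In KO mice PB raised Ces2c and Ces2a, 2 of 10 genes, against 2.13% of all genes tested (1.26% higher and 0.872% lower). None of the 10 genes was called lower with PB in either genotype. The median change of the 10 genes was -0.01 on the log2 scale in WT and 0.20 in KO, beside -0.02 and 0.01 over all genes.

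Ces2c encodes a carboxylesterase of the subfamily that in man is known for hydrolysing drug esters with a bulky alcohol group. Its brightest probe (A_52_P318361) had log2 signals of 2.96, 3.05, 3.28 and 2.88 on the WT DEN arrays and of 4.11, 4.30, 4.50 and 4.68 on the WT DEN + PB arrays. It had 2.90, 2.44, 2.95 and 2.93 on the KO DEN arrays and 4.66, 3.96, 4.77 and 4.24 on the KO DEN + PB arrays. All 8 PB arrays lay above all 8 DEN arrays, and the mice of each treatment overlapped between genotypes. The change was 1.35 ± 0.19 (SE) in WT, or 2.55-fold with a 95% confidence interval (CI) of 1.92 to 3.39, at a limma adjusted p of 0.00137. In KO it was 1.61 ± 0.19, or 3.04-fold (95% CI 2.29 to 4.05), at a limma adjusted p of 0.000187. The exact permutation test, two-sided, gave p = 0.0286 in each genotype, the smallest that 4 arrays against 4 allow. Any groups of 4 without overlap give this p, so it only restates the lack of overlap. With normexp background correction the WT change was 1.27 and was not called (adjusted p = 0.261).

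The other Ces2c probe (A_51_P513573) gave the same direction with a larger spread. Its log2 signals were 2.41, 1.98, 2.11 and 2.56 in WT DEN, 3.72, 3.62, 3.25 and 2.82 in WT DEN + PB, 2.37, 1.47, 2.44 and 2.75 in KO DEN, and 3.51, 3.74, 3.39 and 3.43 in KO DEN + PB. The 8 PB arrays again lay above the 8 DEN arrays. The change was 1.09 ± 0.25 (limma adjusted p = 0.0679) in WT, which did not pass, and 1.26 ± 0.25 (limma adjusted p = 0.0149) in KO, which did.

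Ces2a encodes a hepatic carboxylesterase that is known to hydrolyse glycerolipids. Its log2 signals were 4.12, 4.01, 3.65 and 4.27 in WT DEN and 5.10, 5.04, 4.86 and 4.28 in WT DEN + PB, so that replicate 4 of the treated group lay just above the highest control. In KO they were 4.36, 3.54, 4.15 and 4.27 under DEN and 5.10, 5.31, 4.98 and 5.13 under DEN + PB, with a clear gap between the groups. The change was 0.81 ± 0.21 in WT (1.76-fold, 95% CI 1.29 to 2.40), at a limma adjusted p of 0.129, and was not called. In KO it was 1.05 ± 0.21 (2.07-fold, 95% CI 1.52 to 2.82), at a limma adjusted p of 0.0156. Without WT DEN + PB replicate 4 the WT change was 0.99 and was called (adjusted p = 0.0369). When replicate 2 of KO DEN + PB was left out, the KO change was 0.99 and lost its call (adjusted p = 0.0558). The KO call was also lost after quantile normalization (0.96, adjusted p = 0.0759), with normexp background correction (0.99, adjusted p = 0.389) and in the series table without scaling between arrays (0.75, adjusted p = 0.387). The difference of the PB effects between genotypes was -0.24 ± 0.30 (95% CI -0.87 to 0.40), so a call in one genotype alone does not show that they differed.

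Ephx1 encodes the microsomal epoxide hydrolase, which hydrolyses epoxides of drugs and of polycyclic hydrocarbons. Its brightest probe had log2 signals of 5.52, 5.23, 4.67 and 5.26 in WT DEN and of 6.03, 5.93, 6.08 and 5.91 in WT DEN + PB. In KO the signals were 5.81, 4.53, 5.20 and 5.65 under DEN and 5.94, 6.00, 5.59 and 6.02 under DEN + PB. The WT groups did not overlap, the KO groups did, and the DEN arrays were spread more widely (SD 0.36 and 0.57) than the DEN + PB arrays (SD 0.08 and 0.20). The change was 0.82 ± 0.24 (95% CI 0.31 to 1.33) in WT, at a limma adjusted p of 0.212. In KO it was 0.59 ± 0.24 (95% CI 0.08 to 1.10), at a limma adjusted p of 0.302. Without KO DEN replicate 2, the lowest array, the KO change was 0.33 (adjusted p = 0.578). The other Ephx1 probe gave 0.92 ± 0.27 in WT (adjusted p = 0.211) and 0.69 ± 0.27 in KO (adjusted p = 0.272). Neither probe was called in either genotype.

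**Figure D1:**
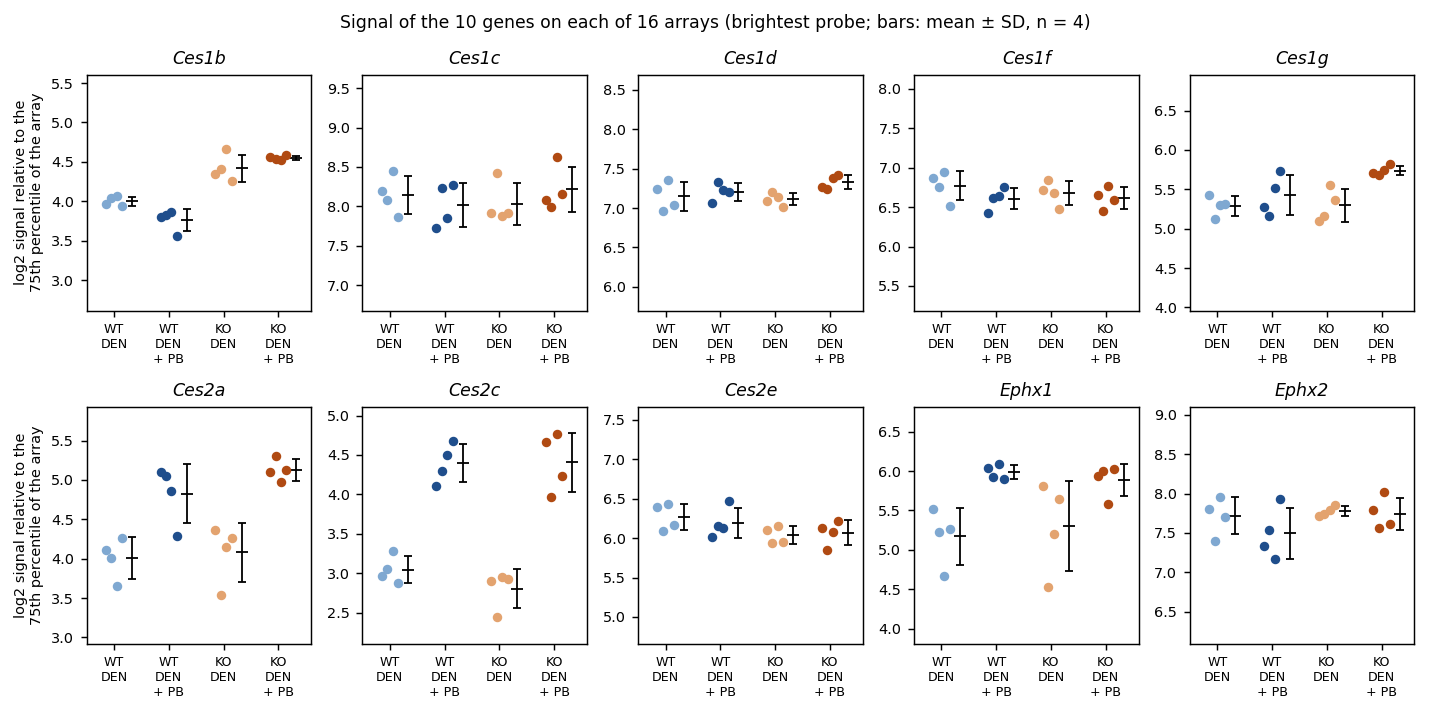
Each panel plots 1 gene by its brightest probe, with the log2 signal relative to the 75th percentile of the array on the y axis (each panel spans the same 3 log2 units) and the 4 groups on the x axis. Points are single arrays and bars are the mean ± SD of 4 arrays. The 8 PB arrays of Ces2c lie above its 8 DEN arrays, and the 8 KO arrays of Ces1b lie above its 8 WT arrays.

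Ces1g encodes a carboxylesterase of liver that is known to act on lipids. Its log2 signals were 5.43, 5.12, 5.30 and 5.31 in WT DEN, 5.27, 5.17, 5.52 and 5.73 in WT DEN + PB, 5.10, 5.16, 5.55 and 5.37 in KO DEN, and 5.70, 5.69, 5.74 and 5.81 in KO DEN + PB. The KO groups did not overlap, and the WT groups did. The change with PB was 0.44 ± 0.15 (95% CI 0.13 to 0.76) in KO at a limma adjusted p of 0.18, and 0.13 ± 0.15 in WT (adjusted p = 0.953). Over the other processing settings the KO change ran from 0.15 to 0.47. Before scaling, the KO intensities of the brightest probe overlapped (5823 to 11130 under DEN and 7327 to 11710 under DEN + PB). The other Ces1g probe gave 0.37 ± 0.14 in KO (adjusted p = 0.262), again without overlap, and 0.16 ± 0.14 in WT.

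By their brightest probes the other genes differed with PB by no more than 0.24 in size in either genotype, and none was called. Ces1d, the liver triacylglycerol hydrolase, differed by 0.06 ± 0.13 in WT and 0.21 ± 0.13 in KO. The latter groups did not overlap (7.02 to 7.20 under DEN and 7.24 to 7.42 under DEN + PB), at a limma adjusted p of 0.56. Ces1f, a related triacylglycerol hydrolase, differed by -0.16 ± 0.14 and -0.06 ± 0.14. Ces1c, the carboxylesterase secreted into mouse plasma, differed by -0.13 ± 0.19 and 0.18 ± 0.19, and Ces1b by -0.24 ± 0.12 and 0.13 ± 0.12. For Ces2e the values were -0.08 ± 0.14 and 0.03 ± 0.14, with 95% CIs of -0.38 to 0.22 and -0.27 to 0.33 that exclude a 1.5-fold change. The other Ces2e probe gave 0.21 ± 0.26 (95% CI -0.34 to 0.75) and 0.27 ± 0.26 (95% CI -0.27 to 0.82), intervals that include it. Ephx2, the soluble epoxide hydrolase that hydrolyses epoxides of fatty acids, differed by -0.22 ± 0.17 and -0.03 ± 0.17. Counted over the 10 genes, the WT groups did not overlap for 3 genes higher with PB (3.21% of all genes) and 1 lower, Ces1b (1.95% of all genes). The KO groups did not overlap for 4 genes higher (4.59%) and 0 lower (4.02%).

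**Figure D2:**
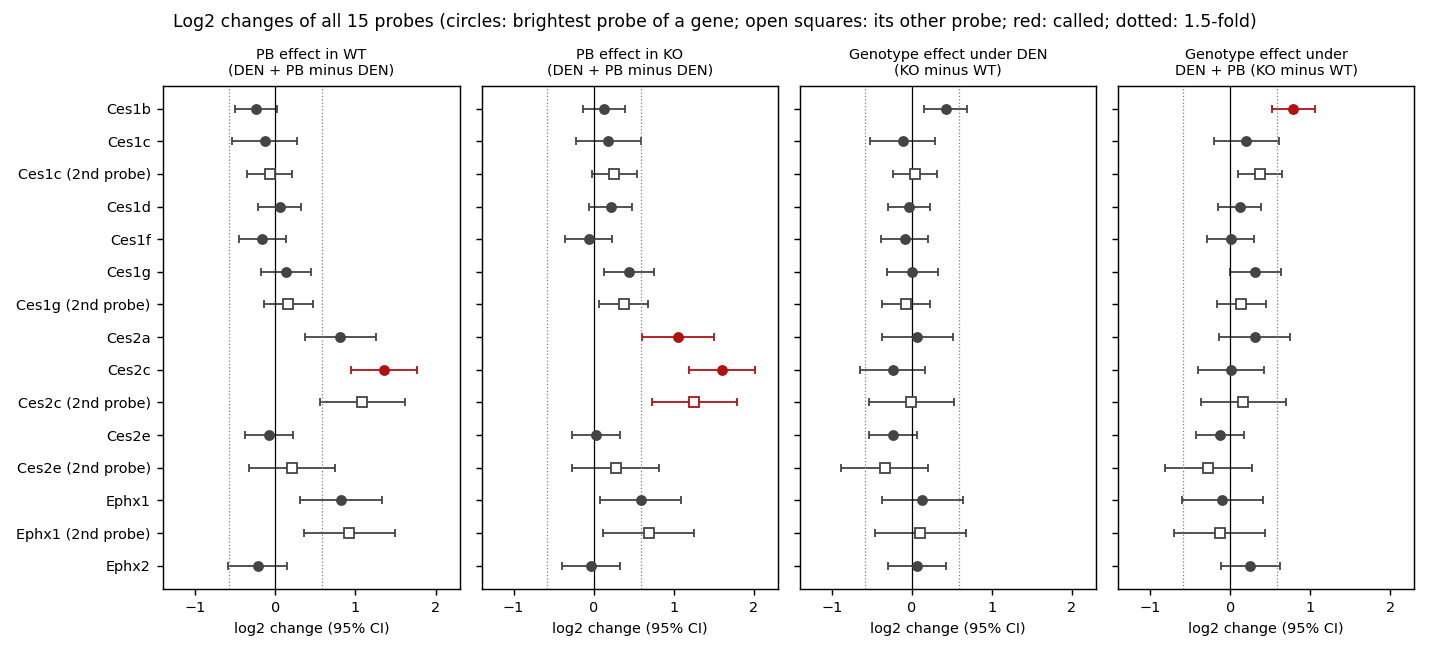
The log2 change (x axis, with its 95% CI) of each of the 15 probes (y axis) is shown in 4 comparisons. Filled circles are the brightest probe of a gene, open squares its other probe, red marks a call and dotted lines a 1.5-fold change. Ces2c is called in both PB comparisons, Ces2a in KO, and Ces1b between genotypes under DEN + PB.

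The difference of PB effects, WT minus KO, was called for 0 of 10 genes and for 0% of all genes tested by limma, and 0 of the 10 genes had an unadjusted p under 0.05, against 881 of 13306 genes. Without moderation of the variance the count was also 0. The difference was negative for 9 of the 10 genes, between -0.37 and -0.10, and 0.23 ± 0.34 for Ephx1. For Ces2c it was -0.25 ± 0.27 (95% CI -0.83 to 0.33), and for Ces1b -0.37 ± 0.18 (95% CI -0.74 to 0.004). All genes had a median of -0.04. The signs depended on scaling: in the deposited series table without scaling between arrays, the median of all genes was 0.35, and the difference was 0.14 for Ces2c and 0.03 for Ces1b.

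Between genotypes, Ces1b was higher in KO under DEN + PB, and it was the only one of the 10 genes called in either treatment. Called genes made up 7.61% of all genes under DEN + PB (1.76% higher and 5.85% lower in KO) and 2.76% under DEN (1.02% higher and 1.74% lower), where 0 of the 10 genes were called and Ces1b was the only 1 with an unadjusted p under 0.05, against 2420 of 13306 genes. Ces1b lies in the Ces1 array next to Ces1c. Its log2 signals were 3.96, 4.04, 4.06 and 3.94 in WT DEN and 3.80, 3.83, 3.86 and 3.55 in WT DEN + PB. In KO they were 4.34, 4.41, 4.66 and 4.26 under DEN and 4.56, 4.53, 4.52 and 4.59 under DEN + PB. All 8 KO arrays lay above all 8 WT arrays. KO minus WT was 0.79 ± 0.12 under DEN + PB (1.73-fold, 95% CI 1.44 to 2.08), at a limma adjusted p of 0.00129. Under DEN it was 0.42 ± 0.12 (1.34-fold, 95% CI 1.11 to 1.61), at a limma adjusted p of 0.0753. The exact permutation test, two-sided, gave p = 0.0286 in both, which restates the lack of overlap. The call under DEN + PB was lost with normexp background correction (0.95, adjusted p = 0.184) and in the series table without scaling between arrays (0.45, adjusted p = 0.398). Within the 4 slides the difference under DEN + PB was between 0.66 and 1.00.

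The genotypes did not overlap for 1 of 10 genes under DEN, higher in KO, against 4.6% of all genes, and for 1 of 10 under DEN + PB, against 7.47%. None of the 10 genes was lower in KO without overlap, against 6.34% and 9.86% of all genes. That gene was Ces1b. The remaining 9 genes differed between genotypes by -0.24 to 0.13 under DEN and by -0.12 to 0.31 under DEN + PB, with limma adjusted p between 0.22 and 0.984 under DEN + PB. Ces1c had 95% CIs of -0.52 to 0.29 and -0.21 to 0.61 by its brightest probe. Its other probe was higher in KO without overlap under DEN + PB (7.32 to 7.56 in WT and 7.69 to 7.92 in KO), by 0.37 ± 0.13 at a limma adjusted p of 0.0975. Before scaling, the intensities of that probe overlapped (27980 to 55450 in WT and 33220 to 47800 in KO). The mean log2 75th percentile was 7.86 in WT DEN + PB and 7.52 in KO DEN + PB, and its part in this difference was not tested. Ces1c and Ces1b probes may hybridise to the RNA of paralogs, as may those of the Ces2 genes, so the assignment of a signal to 1 gene of a subfamily is uncertain.

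Markers of other cell types also differed between genotypes. Of 5 tested markers of Kupffer cells and leukocytes, 2 were called lower in KO under DEN and 4 under DEN + PB, and of 4 endothelial markers 2 were called lower under each treatment. Of 4 cholangiocyte markers, 3 were called lower in KO under DEN + PB and 2 higher with PB in WT. Of 4 stellate markers 1 was called lower in KO under DEN + PB, and of 2 tested adipocyte markers 1 under DEN. No tested marker of pancreatic acinar cells or intestinal epithelium was called. Over all genes, 1.74% were called lower in KO under DEN, 5.85% under DEN + PB, and 0.654% higher with PB in WT. Of 4 hepatocyte markers with a probe, all were well above background on 16 arrays, and 1 (Tat) was called, higher in KO under DEN + PB. The summed level of the Kupffer cell and leukocyte list was 4.41 to 4.62 in WT DEN + PB and 3.01 to 3.61 in KO DEN + PB on the log2 scale, and that of the hepatocyte list 9.40 to 9.72 and 9.68 to 10.06. The part of these shifts in the Ces1b result was not tested. In RNA of whole liver, fewer cells of a type and less RNA per cell cannot be told apart.

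Other carboxylesterases were examined beside the 10 genes, from a list of 12, of which 7 had a probe and 6 were tested. Ces2b was called higher with PB in WT (1.42 ± 0.19, limma adjusted p = 0.000842) and in KO (1.64 ± 0.19, limma adjusted p = 0.000162). Ces2f was called in KO (1.05 ± 0.16, adjusted p = 0.00173) and had 0.71 ± 0.16 in WT (adjusted p = 0.0546). These Ces2f values rest on 1 probe, because its other probe (A_51_P455295) was well above background on 0 of 16 arrays and was not tested. Ces2g, Ces3b, Ces1e and Ces4a were called with PB in neither genotype. Ces4a had the largest difference in size of any tested carboxylesterase in WT, -1.49 ± 0.38 (95% CI -2.31 to -0.68, limma adjusted p = 0.124), and -0.94 ± 0.38 in KO (adjusted p = 0.311). Ces1e had -0.68 ± 0.19 in WT (95% CI -1.09 to -0.27, limma adjusted p = 0.196) and -0.0046 in KO. For both genes the WT groups did not overlap. Ces1e was called higher in KO under DEN + PB (0.69 ± 0.19, limma adjusted p = 0.0419), with 5.07 to 5.82 in WT and 5.84 to 6.29 in KO. In the order of the genes on chromosome 8, Ces2a, Ces2b and Ces2c are adjacent, Ces2e and Ces2f follow a pseudogene, and the Ces1 genes lie apart from them.

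**Figure D3:**
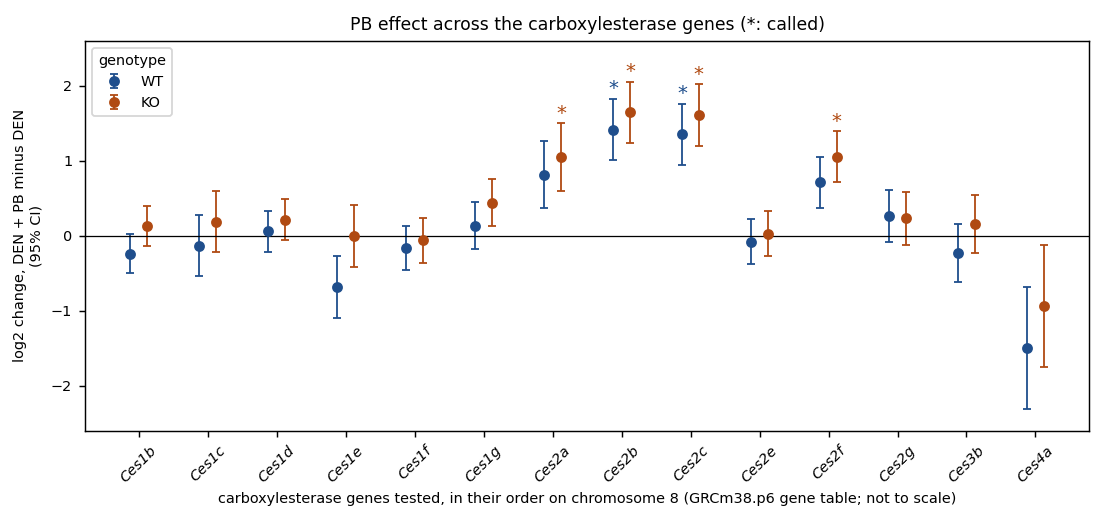
The change with PB (y axis, log2 change with its 95% CI) is plotted for each tested carboxylesterase gene (x axis, in gene order and not to scale) in WT and KO. Each gene is shown by its brightest probe. Asterisks mark calls. Ces2a, Ces2b, Ces2c and Ces2f hold the 4 highest values in each genotype, and Ces2e, between Ces2c and Ces2f, has values near 0. Ces4a holds the lowest value in each genotype (-1.49 and -0.94), without a call.

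Of 15 listed cytochromes P450 that are known to form epoxides, 13 were tested. With PB, 4 were called higher in WT and 6 in KO, against 0.654% and 1.26% of all genes. Cyp2c55 had the largest change, 4.40 ± 0.24 in WT and 4.16 ± 0.24 in KO. Cyp2c29, Cyp2c39 and Cyp2c54 were called in both genotypes, with 0.67, 1.22 and 1.26 in WT and 0.93, 1.65 and 1.85 in KO. Cyp2c37 (1.16) and Cyp1a2 (1.03) were called in KO. Between genotypes, 1 of the 13 was called higher in KO under DEN and 1 under DEN + PB, against 1.02% and 1.76% of all genes. No member of the lists of other epoxide hydrolases (2 of 4 tested), other esterases and lipases (13 tested) or regulators (9 tested) was called with PB. Among the regulators, Ppara was called higher in KO under DEN + PB (0.73 ± 0.18, limma adjusted p = 0.0204), and among the lipases Pnpla3 was called lower (-2.16 ± 0.51, limma adjusted p = 0.0176).

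Over the 16 arrays, the gene most like Ces2c was Ces2b (Pearson r = 0.983), followed by Gsta1 (0.953) and Cyp2b9 (0.95), a glutathione transferase and a cytochrome P450. Most like Ces2a was Cyp1a2 (0.96), then Mfsd11 and Cyp2a22, and most like Ephx1 was Fmo5 (0.927), then Gstm4 and Snrpn. Ces1b was most like Arsk (0.916), Uba6 and Dpyd, and Ces1c most like Apoe (0.986), Serpinc1 and Rps12. The first genes of Ces1d, Ces1f, Ces1g, Ces2e and Ephx2 were Calr3, Leap2, Slc19a1, Armc1 and Zfp637, with r between 0.893 and 0.93. Each likeness was taken over 13281 genes with values on all 16 arrays, and the arrays share groups, slides and the scaling to the 75th percentile.

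The pair of Ces2c probes did not vary together among mice of a group. Over the 16 arrays their r was 0.811, but over the deviations from the group means it was -0.108. The brightest Ces2c probe instead deviated with Ces2b probe A_52_P627269 (r = 0.825), and the other Ces2c probe with the Ces2a probe (0.889) and Ces2b probe A_51_P436567 (0.886). The Ces2b probes deviated together with r = 0.289. The Ephx1 probes had r = 0.984 over the arrays and 0.965 over the deviations, the Ces1g probes 0.802 and 0.648, the Ces1c probes 0.549 and 0.573, and the Ces2e probes 0.171 and -0.034. Whether the probes detect different transcripts or the RNA of paralogs was not tested.

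**Figure D4:**
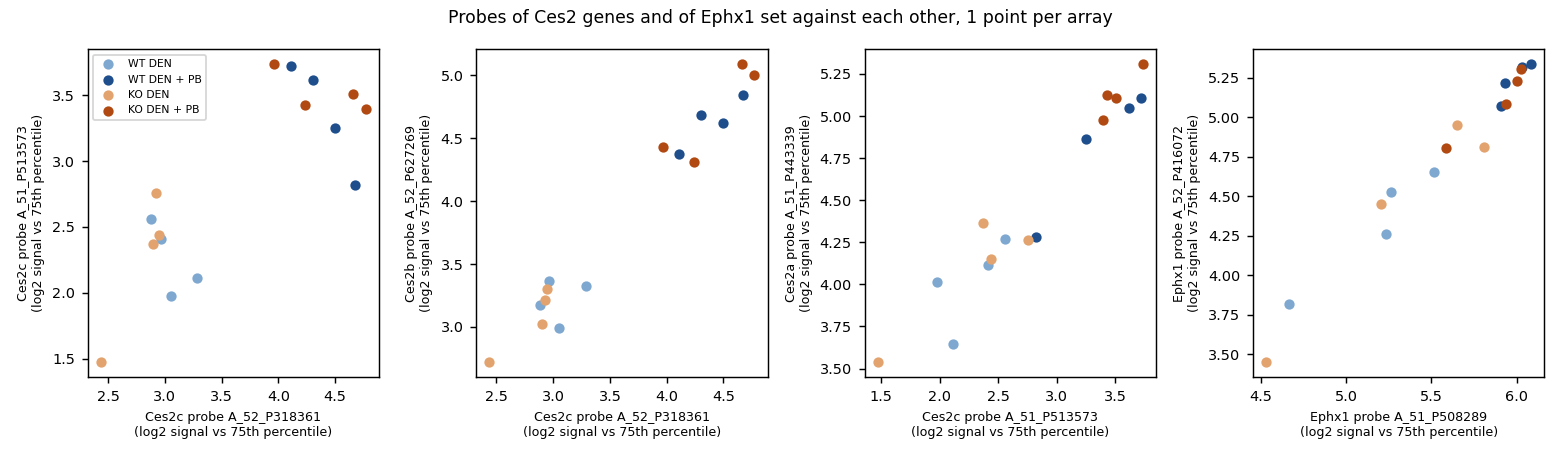
Each point is 1 of 16 arrays, coloured by group, and both axes are log2 signals relative to the 75th percentile of the array. From left to right the panels set the Ces2c probes against each other (r = 0.811), the brightest Ces2c probe against a Ces2b probe (0.983), the other Ces2c probe against the Ces2a probe (0.967), and the Ephx1 probes against each other (0.984).

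Among the 10 genes, Ces2a and Ephx1 went together most closely over the arrays (r = 0.865) and had r = 0.756 over the deviations from group means. Ces1c and Ces1f deviated together (r = 0.807), and both deviated against Ces2a (r = -0.76 and -0.745). The array's own log2 75th percentile moved with these genes: over deviations, its r was -0.877 with Ces1c, -0.76 with Ephx2, -0.639 with Ces1f and -0.612 with Ces1d, and 0.66 with Ces2a and 0.594 with Ephx1. For Ces2c it was -0.183 and for Ces1b 0.26. Before scaling, the brightest Ces1c probe read 51380 to 74790 intensity units over the arrays, while the 75th percentile ran from 136.9 to 294.3. The part of the 75th percentile in the spread was not tested. Within the 3 slides that held both groups, PB was higher in 3 of 3 for Ces2c (0.83 to 1.71 in WT and 1.06 to 1.84 in KO), Ces2a (0.14 to 1.46 and 0.77 to 1.59) and Ephx1 (0.41 to 1.37 and 0.16 to 1.49).

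**Figure D5:**
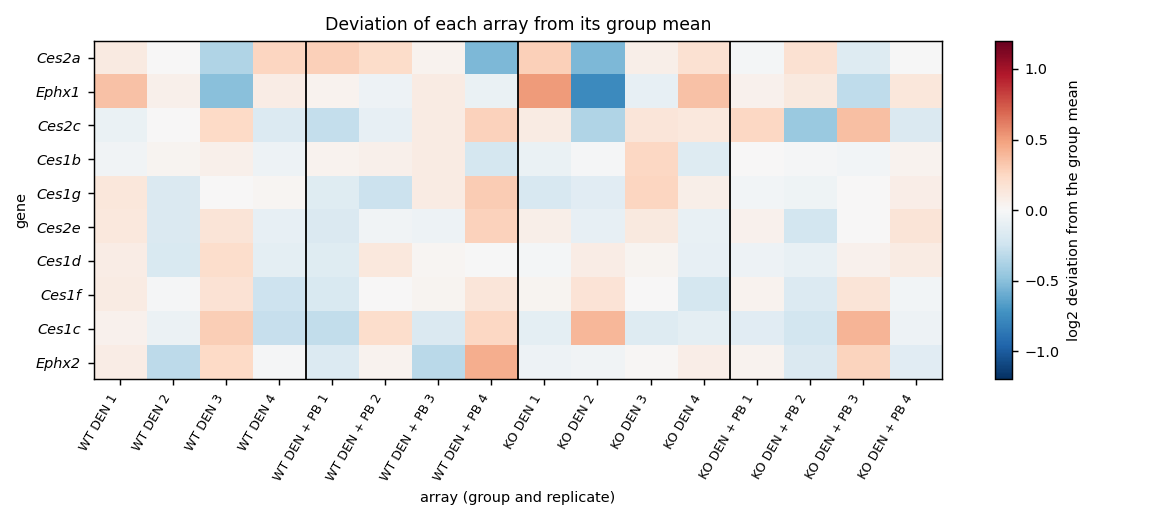
Colours give the deviation of each array (x axis) from its group mean on the log2 scale for the 10 genes (y axis), with red above and blue below. KO DEN replicate 2 is low in Ephx1 (-0.76) and Ces2a (-0.54) and high in Ces1c (0.40).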

How the data were processed

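Liver RNA of 16 mice was labelled with Cy3, and the scanner files were written by the authors' Agilent Feature Extraction 12 (12.0.3.1 per the file headers). The signal used, as deposited, was a linear-scale intensity that this software had corrected for background, without scaling between arrays. The deposited series table held the means of the same intensity values over spots, to within 5e-04 percent. The normalization before the authors' own test is not given in the sources used here. The array design was built on mm9, so gene coordinates of the array are not given.

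Control spots and spots with an outlier mark (71 to 122 per array) were left out, spots of a probe were averaged, and log2 of the deposited intensity minus the array's 75th percentile was used. Probes entered the test if all 4 arrays of some group detected them well above background (24457 of 41174 probes, 59.4%). RefSeq accessions were named through a GRCm38.p6 gene table (28223 probes). Models with 4 group means were fitted with limma 3.58.1 (lmFit, eBayes) in R 4.3.3 and adjusted by Benjamini-Hochberg over all probes tested. A gene takes the value of its brightest probe. All 10 members and their probes are named by rule. The 10 genes and the lists were chosen with earlier results of these data known. The precision is limited by 4 arrays per group. Promoter windows were aligned end to end with free end gaps (Biopython). The fit was tested on data simulated with independent noise of the same spread in every group. Such data lack the correlations between probes seen here, so that test does not cover them. Alternatives were other background corrections, scalings, filters, blocks, gene values and fits, and leaving out each array. The normexp setting was chosen after seeing the data, because the files hold median and not mean spot signals. Same-numbered samples of the compared groups deviated with r from -0.205 to 0.329, and the numbers were not taken to pair the mice.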

Additional observations from a re-analysis of the deposited data

Results flagged for a closer look

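In 2 of 60 sets of 4 arrays (15 probes in 4 groups), 1 array stood apart from the other 3 of its group, and chance alone marks about 1 in 20. Both were KO DEN replicate 2. The brightest Ces1c probe had a log2 signal of 8.43 there, against 7.87 to 7.91 on the other 3 arrays. Before scaling, its intensity there was 56040, within the 55520 to 68300 of the other arrays of the group. The brightest Ces2c probe had a log2 signal of 2.44 on that array, against 2.90 to 2.95. Its array had a 75th percentile of 162.6, the lowest of the KO DEN group.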

How the results depend on the processing

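Of the 10 genes, the number called with PB in WT was 1, and it was 0 with normexp on the median signals, where Ces2c had 1.27 (adjusted p = 0.261). With each array left out in turn it was 1 to 2 (2 without WT DEN + PB replicate 4). The number called in KO was 2, and it was 1 with normexp, after quantile normalization and in the series table without scaling, each time without Ces2a, and 1 to 2 with each array left out (1 without KO DEN + PB replicate 2). The number called between genotypes under DEN + PB was 1, and it was 0 with normexp (Ces1b at 0.95, adjusted p = 0.184) and in the series table without scaling (0.45, adjusted p = 0.398). The counts were 0 for the difference of PB effects and for the genotype effect under DEN in every setting run. Normexp called 12 genes of all tested with PB in WT, against 98, and 40 in KO, against 283, and the cause was not tested. In the series table without scaling the median of all genes was 0.08 for the PB effect in WT, -0.29 in KO, 0.35 for their difference and -0.31 for the genotype effect under DEN + PB, against -0.02, 0.01, -0.04 and 0.03. With the replicate number as a replicate block the 5 counts were 1, 2, 0, 0 and 1, and no call changed.

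Changes that were not called took the opposite sign in some settings. In the deposited series table without scaling between arrays, the PB effect in WT was 0.0222 for Ces2e. There, the PB effect in KO was -0.17 for Ces1b, -0.11 for Ces1c, -0.0811 for Ces1d and -0.27 for Ces2e. There, the difference of PB effects was 0.0287 for Ces1b, 0.0822 for Ces1c, 0.24 for Ces1d, 0.30 for Ces1f, 0.0898 for Ces1g, 0.16 for Ces2a, 0.14 for Ces2c, 0.29 for Ces2e and 0.21 for Ephx2. There, the genotype effect under DEN was 0.0224 for Ces1d. There, the genotype effect under DEN + PB was -0.14 for Ces1c, -0.22 for Ces1d, -0.33 for Ces1f, -0.0243 for Ces1g, -0.0336 for Ces2a, -0.33 for Ces2c and -0.0876 for Ephx2. After quantile normalization, the PB effect in WT was 0.0158 for Ces2e. There, the PB effect in KO was -0.0164 for Ces1c and -0.0463 for Ces2e. There, the difference of PB effects was 0.063 for Ces1d, 0.16 for Ces1f, 0.0621 for Ces2e and 0.0629 for Ephx2. There, the genotype effect under DEN + PB was -0.0517 for Ces1c, -0.0888 for Ces1d, -0.21 for Ces1f and -0.0847 for Ces2c. With normexp, the genotype effect under DEN was 0.12 for Ces1c, 0.22 for Ces1d and 0.14 for Ces1f. There, the genotype effect under DEN + PB was 0.12 for Ces2e and 0.12 for Ephx1. With the mean of all probes of a gene, the PB effect in WT was 0.0633 for Ces2e. There, the genotype effect under DEN was -0.0344 for Ces1g. With slide as a fixed block, the genotype effect under DEN was -0.0446 for Ces1g and -0.0067 for Ces2a. With each array left out in turn, the PB effect in WT ran from -0.0057 to 0.13 for Ces1d. With each array left out in turn, the PB effect in KO ran from -0.0226 to 0.10 for Ces2e and from -0.12 to 0.0253 for Ephx2. With each array left out in turn, the genotype effect under DEN ran from -0.0801 to 0.0716 for Ces1g, from -0.0429 to 0.14 for Ephx2, from -0.0985 to 0.0326 for Ces1d, from -0.0524 to 0.25 for Ces2a and from -0.0407 to 0.38 for Ephx1. With each array left out in turn, the genotype effect under DEN + PB ran from -0.054 to 0.0623 for Ces1f and from -0.11 to 0.16 for Ces2c.

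Across 4 arrays a group, changes of the size of those of Ephx1 and Ces1g did not pass the adjusted threshold, which does not show that they were absent. The levels of different probes cannot be compared.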
